A study of Mus musculus with 22 samples.

Results

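The stromal matrix genes described here are 39 mesenchymal genes of the kind that OP9-type feeder stroma makes, taken by gene symbol from the deposited expression table. They comprise 10 collagens, 14 matrix proteins, 6 genes of matrix processing, 3 contractile genes and 6 genes of the cell surface, signalling and other roles. Of the 39, 38 were measured among the 22180 genes with a probe that names a single symbol. They were read by 45 such probes, 7 of them having a second probe (Col1a2, Col5a1, Col6a1, Ccn2, Bgn, Nid1 and Emp1). Fibrillin 1 (Fbn1), the backbone of elastic microfibrils, had no such probe and was not analysed here.

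Wild-type C57Bl/6J fetal liver cells of embryonic stage E14.5 were cultured on OP9-DL1, a mouse stromal feeder line that carries the Notch ligand Dll1. The cultures received 1 µM of a gamma-secretase inhibitor (GSI), which blocks the cleavage that activates Notch receptors, or DMSO, its solvent. After culture, haematopoietic stem cells were isolated by the SLAM LSK sort, which takes Kit and Sca-1 positive cells without lineage markers and gates them on SLAM family proteins, and their RNA was hybridised to 22 arrays. At 4 h there were 7 samples with DMSO and 7 with GSI, and at 10 h 4 of each kind. Controls and treated cultures thus shared the feeder line and its ligand, and no group lacked them. Each DMSO culture had a GSI partner, so that the treatments were compared within 7 pairs at 4 h and 4 pairs at 10 h. Pairs are numbered within each time, and a shared number is not taken to link a 4 h pair to a 10 h pair.

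Stromal cells secrete collagens as procollagen chains that assemble into triple helices with the help of chaperones, are crosslinked by lysyl oxidases, and are bound by glycoproteins and small proteoglycans. Tissue inhibitors of metalloproteinases slow the breakdown of this matrix. In marrow and fetal liver, genes of this kind are used as markers of mesenchymal stroma, but not all of them are confined to it. Macrophages and capillary endothelium also make Fabp4, and endothelium also makes the basement membrane collagens. Stroma supports stem cells through secreted factors such as the chemokine Cxcl12. Feeder cells and the mesenchyme of the fetal liver are both of mouse origin, so their RNA cannot be told apart on these arrays. In such bulk samples fewer cells of a type and less RNA per cell cannot be told apart either.

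The values are log2 levels. Array medians were 5.03 to 5.12 at 4 h and 4.45 to 4.52 at 10 h, and no array was a copy of another. Hes1, a direct Notch target, differed by -0.97 ± 0.088 (SE, n = 7 pairs) at 4 h (limma adjusted p = 0.00020) and by -1.36 ± 0.117 (n = 4 pairs) at 10 h (adjusted p = 4.7e-05). Among genes of the sort, Kit had a mean level of 9.97 ± 0.18 (SD) and the pan-leukocyte gene Ptprc of 9.07 ± 1.04 in DMSO at 4 h. Slamf1, the SLAM family gene of the gate, was at 3.98 ± 0.18 there and at 4.74 ± 0.30 in DMSO at 10 h, near or below the array medians. Detection calls were not used here, so presence or absence of a transcript is not stated, and precision is limited by how few arrays there were.

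Promoter sequences are shown for Col1a2, Col6a2, Cald1 and Emp1, which are among the 8 members with the smallest p at 10 h and have a RefSeq promoter window on GRCm38.p6. Each is the 250 bases before a transcript start, written 5′ to 3′ on the strand of the gene. Capitals mark a TEAD motif (GGAATG, the site through which Yap and Taz act on matrix genes) or a CCAAT box (CCAAT), each searched on both strands. The Col1a2 window lies at chr6:4505368-4505617 (plus strand), the Col6a2 window at chr10:76623405-76623654 (minus strand), the Cald1 window at chr6:34598254-34598503 (plus strand) and the Emp1 window at chr6:135362681-135362930 (plus strand).
Col1a2: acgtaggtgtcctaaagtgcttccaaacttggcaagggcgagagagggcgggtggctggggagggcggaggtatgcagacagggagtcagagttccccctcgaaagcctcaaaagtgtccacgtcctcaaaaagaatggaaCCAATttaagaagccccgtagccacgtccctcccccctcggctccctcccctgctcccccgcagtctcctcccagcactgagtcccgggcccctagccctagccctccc
Col6a2: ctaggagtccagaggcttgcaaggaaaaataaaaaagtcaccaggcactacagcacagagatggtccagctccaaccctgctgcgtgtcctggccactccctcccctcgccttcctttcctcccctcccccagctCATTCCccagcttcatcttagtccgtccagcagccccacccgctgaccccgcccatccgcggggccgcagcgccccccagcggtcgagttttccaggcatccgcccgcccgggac
Cald1: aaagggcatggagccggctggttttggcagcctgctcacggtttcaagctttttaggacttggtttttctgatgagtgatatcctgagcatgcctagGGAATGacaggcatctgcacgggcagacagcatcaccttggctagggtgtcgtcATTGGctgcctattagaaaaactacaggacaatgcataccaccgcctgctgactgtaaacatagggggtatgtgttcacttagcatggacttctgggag
Emp1: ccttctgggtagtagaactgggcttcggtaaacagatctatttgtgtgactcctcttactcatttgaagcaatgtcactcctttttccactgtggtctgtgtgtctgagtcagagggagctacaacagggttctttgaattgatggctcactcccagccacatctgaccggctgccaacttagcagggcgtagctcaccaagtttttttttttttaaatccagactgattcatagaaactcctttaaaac

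The Col1a2 window holds a CCAAT box 109 bases before the start. The Col6a2 window holds a TEAD motif 115 bases before it, on the opposite strand. Cald1 has a TEAD motif 153 bases and a CCAAT box 99 bases before this start, and the Emp1 window holds neither. Windows of 25 of the 39 members were found, 29 in all. A TEAD motif occurred in 7 of the 29 (Acta2, Cald1, Ccn1, Col3a1, Col6a2, Nid1 and Timp1), against 12.6% of 32851 windows of all genes. A CCAAT box occurred in 8 of the 29, against 33.8% of all windows. The CArG box is the site of serum response factor in contractile genes. Its strict form (CCWWWWWWGG, with W for A or T) occurred in 0 of the 29, against 1.47%. Looser forms, such as ccctatatgg and ccttgtttgg in the Acta2 window, were not counted. A match is a description of letters and not evidence of a bound site.

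At 10 h most stromal matrix genes had lower levels with GSI than with DMSO, and 3 of them fell past the threshold: Fabp4, Cd248 and Emp1. At 4 h none did. Of the 38 members, 34 had a negative difference at 10 h (median -0.30 on the log2 scale), whereas 53.8% of all genes had one (median -0.01). At 4 h, 11 of 38 members were negative (median 0.08), against 45.7% of all genes (median 0.01). Without pair 1 at 4 h, 19 of 38 were negative and the median was -0.01. At 10 h the median was -0.48 without pair 1 and -0.19 without pair 2, with 34 and 31 negative. The direction at 10 h was not shared by the pairs: the median member differed by 0.15 in pair 1, -0.54 in pair 2, -0.60 in pair 3 and -0.27 in pair 4. The 3 members that passed parted from most others in pair 1. There Fabp4 differed by -1.18, Cd248 by -1.19 and Emp1 by -1.24, while 25 of 38 members were positive.

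**Figure D1:**
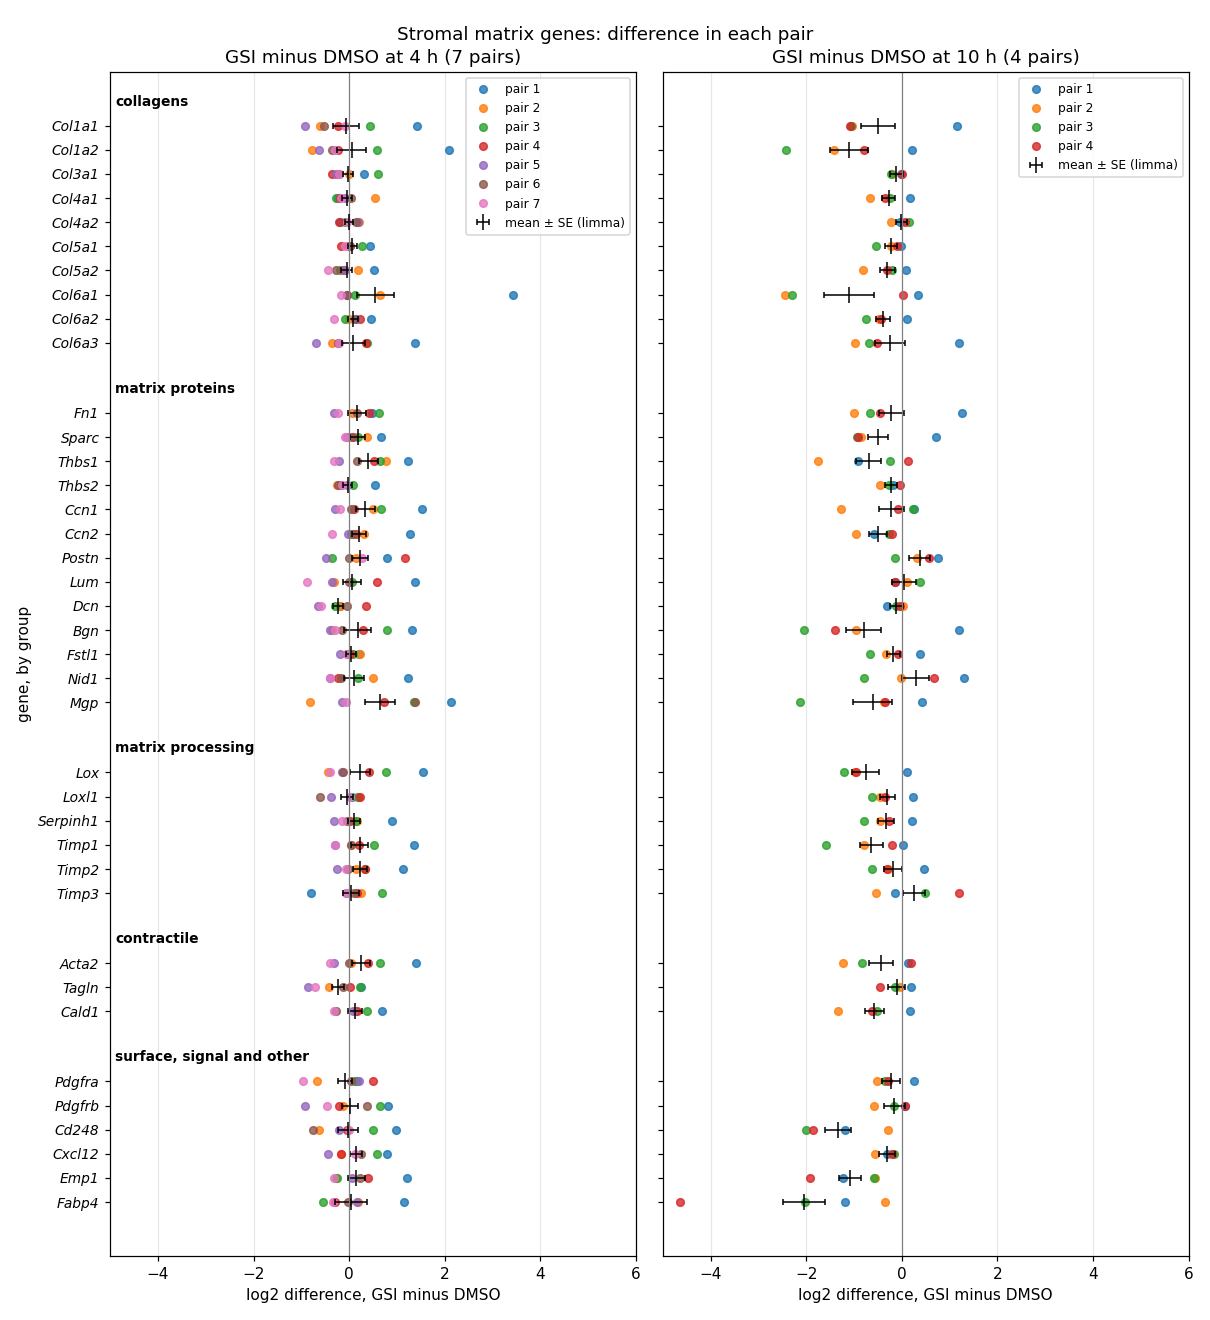
Difference of GSI minus DMSO (log2, x axis) for each of the 38 stromal matrix genes (y axis, by group) at 4 h (left, 7 pairs) and 10 h (right, 4 pairs); coloured points are pairs and black bars the limma estimate ± SE. At 4 h pair 1 (blue) lies highest for many genes, with Col6a1 at 3.42. At 10 h pair 1 of that time lies to the right of the other pairs for most genes, while Fabp4 reaches -4.63 in pair 4.

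With limma and an adjusted p under 0.05 over all genes, 3 of 38 members were lower with GSI at 10 h, against 0.113% of all genes (25 of 22180), and 0 were higher, against 0.555% (123 genes). An unadjusted p under 0.05 was found for 12 of the 38 and for 14.1% of all genes. At 4 h, 0 members passed in either direction, against 0.00451% of all genes lower (Hes1 alone) and 0% higher, and 1 of 38 members had an unadjusted p under 0.05, against 4.21% of all genes. For the difference between the effects at both times, 0 members passed, against 0% of all genes lower and 0.018% higher. There, 14 of 38 members had an unadjusted p under 0.05 (9.36% of all genes), 33 were negative (53.6% of all genes), and the median was -0.42 (-0.02 for all genes). That median was -0.28 without pair 1 at 4 h, and -0.63, -0.27 and -0.27 without pair 1, 2 or 3 at 10 h.

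Fabp4 (Entrez 11770, chromosome 3) encodes a fatty acid binding protein of adipocytes that macrophages and capillary endothelium also make. Its level at 10 h was 8.46, 7.56, 6.89 and 7.94 in the DMSO arrays of pairs 1 to 4 and 7.29, 7.22, 4.87 and 3.31 in their GSI partners. GSI was lower in every pair, with differences of -1.18, -0.34, -2.03 and -4.63, yet the groups overlapped, since the GSI arrays of pairs 1 and 2 were above the DMSO array of pair 3. Fabp4 fell by 2.05 ± 0.446 (n = 4 pairs, limma adjusted p = 0.0495), a 4.13-fold decrease. This SE comes from a fit over both times. The SD of the pair differences was 1.86 at 10 h and 0.555 at 4 h. Fitted on the 10 h arrays alone, the difference was -2.05 ± 0.553 and did not pass (limma adjusted p = 0.479). Without pair 4 the difference was -1.18 and did not pass (adjusted p = 0.110), nor did it pass without pair 1 (-2.33, adjusted p = 0.0911) or pair 3 (-2.05, adjusted p = 0.0774). The sample descriptions carry codes that pairs share, of a meaning that is not given, and are numbered here as code sets within each time. Fabp4 differed by -0.76 in 10 h code set 1 (pairs 1 and 2) and by -3.33 in code set 2 (pairs 3 and 4).

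At 4 h the Fabp4 level ran from 8.58 over a median of 10.61 to 11.39 in DMSO and from 9.53 over 10.31 to 11.36 in GSI. The groups covered each other almost fully and the difference was 0.04 ± 0.337 (n = 7 pairs, limma adjusted p = 0.999). In DMSO at 4 h Fabp4 was lowest in pair 1 (8.58) and highest in pair 6 (11.39). The mean level of 10 endothelial markers was also lowest (7.78) and highest (10.55) there. In pair 1 at 10 h, however, Fabp4 was lower with GSI while the endothelial median was 0.44. The part of endothelium in the Fabp4 values was not tested. Of 10 other adipocyte genes none passed at 10 h (0 at an unadjusted p under 0.05), 7 had negative values, and the median was -0.13, with Pparg, the master regulator of fat cell formation, at -0.15, Adipoq (adiponectin) at -0.13 and the lipid droplet gene Plin1 at 0.06.

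Cd248 (Entrez 70445, chromosome 19) encodes endosialin, a surface glycoprotein of pericytes and fibroblasts. The DMSO arrays at 10 h were at 6.92, 6.47, 7.03 and 6.78 and the GSI arrays at 5.74, 6.19, 5.03 and 4.92. Every GSI array lay below every DMSO array, which held for no other member and for 1.31% of all genes (0 members and 1.41% of all genes lay wholly above). The per-pair differences were -1.19, -0.29, -2.0 and -1.86, so that pair 2 contributed least. Cd248 fell by 1.33 ± 0.270 (n = 4 pairs, limma adjusted p = 0.0391), a 2.52-fold decrease. The SD of its pair differences was 0.784 at 10 h and 0.613 at 4 h. With the 10 h arrays fitted alone Cd248 did not pass (limma adjusted p = 0.375). The difference was -0.74 within code set 1 and -1.93 within code set 2. It ranged from -1.11 to -1.38 with pair 1, 3 or 4 left out and did not pass in those 3 cases (adjusted p = 0.108, 0.0890 and 0.151).

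At 4 h the level of Cd248 was 6.28 at the lowest, 7.11 at the median and 7.80 at the highest in DMSO, and 6.12, 7.27 and 7.79 in GSI. The ranges coincided, and the difference was -0.02 ± 0.204 (n = 7 pairs, limma adjusted p = 0.999). At 4 h every GSI array lay below every DMSO array for 0 members and 0.0135% of all genes, and above for 0 members and 0.0271%.

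Emp1 (Entrez 13730, chromosome 6) encodes a membrane protein with 4 membrane-spanning segments that many adherent cells make. At its brighter probe the DMSO arrays at 10 h were at 7.49, 6.49, 5.62 and 6.31 and the GSI arrays at 6.25, 5.93, 5.04 and 4.39. Each pair was lower with GSI, with differences of -1.24, -0.55, -0.59 and -1.92, but the spread between pairs was wide enough for the groups to overlap. Emp1 fell by 1.08 ± 0.233 (n = 4 pairs, limma adjusted p = 0.0495), a 2.11-fold decrease, and the call was lost without pair 1 (adjusted p = 0.161) or pair 4 (adjusted p = 0.193). The call was also lost with the 10 h arrays fitted alone (limma adjusted p = 0.392).

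The other Emp1 probe was also lower in 4 of 4 pairs, with differences of -0.46, -0.82, -0.03 and -0.19, but its difference of -0.38 ± 0.221 did not pass (limma adjusted p = 0.475). With the mean of both probes the difference was -0.73 and did not pass (adjusted p = 0.102). At 4 h Emp1 differed by 0.15 ± 0.176 at the brighter probe and 0.30 ± 0.167 at the other (n = 7 pairs, limma adjusted p = 0.999 for both).

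**Figure D2:**
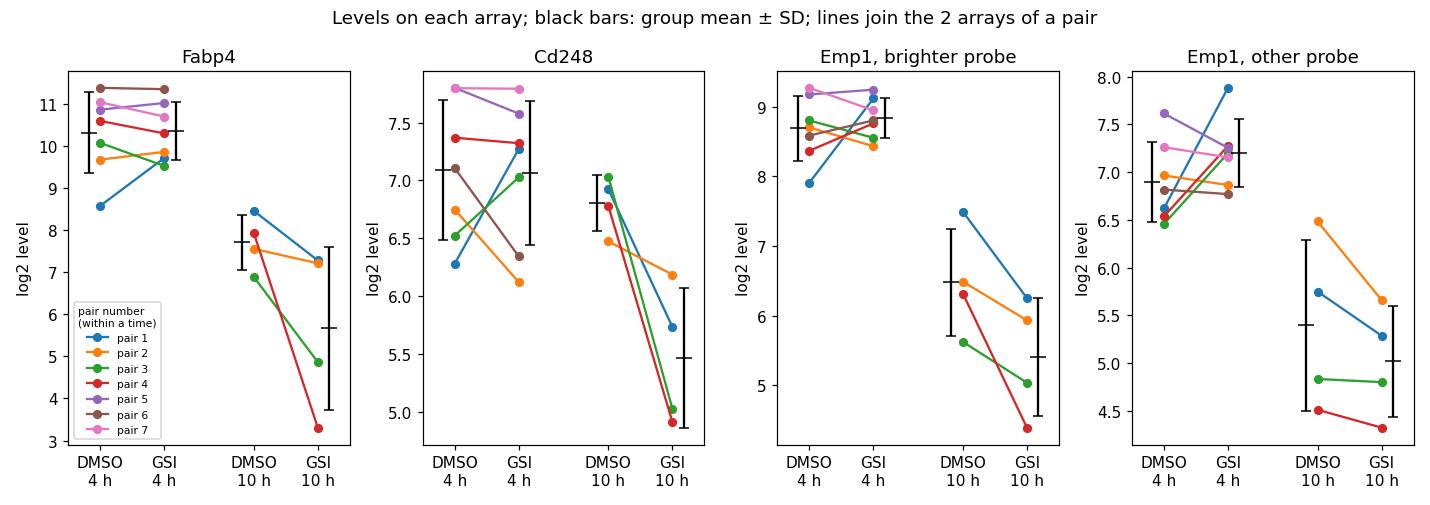
Log2 level (y axis) on each array for Fabp4, Cd248 and both Emp1 probes, by group (x axis); lines join the arrays of a pair and black bars give the group mean ± SD. At 10 h all lines descend from DMSO to GSI, most steeply for Fabp4 in pair 4 (7.94 to 3.31) and least at the other Emp1 probe in pair 3. At 4 h lines run both ways, and pair 1 ascends in each panel.

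Among the other surface and signal genes, Cxcl12, the chemokine that holds stem cells near stroma, was lower with GSI in every pair at 10 h. Its DMSO arrays were at 5.26, 6.15, 5.35 and 4.90 and its GSI arrays at 4.94, 5.59, 5.19 and 4.68. The groups overlapped, and the difference of -0.31 ± 0.168 did not pass (n = 4 pairs, limma adjusted p = 0.423). The receptors of platelet-derived growth factor, which mark fibroblasts and pericytes, differed by -0.23 (Pdgfra) and -0.15 (Pdgfrb) and did not pass. Pdgfra had a low mean level at 10 h, 3.87 in DMSO and 3.64 in GSI, below the array medians of 4.45 to 4.52. All 6 genes of this group were negative at 10 h (median -0.69), against 2 of 6 at 4 h (median 0.03).

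The collagens did not pass at either time. All 10 were negative at 10 h, from -0.01 (Col4a2) to -1.10 (Col1a2), with a median of -0.29, while at 4 h 5 of 10 were negative and the median was 0.03. In 7 of the 10, however, the DMSO array of pair 1 was the lower member of its pair at 10 h.

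Col1a2 and Col1a1 encode the chains of type I collagen, the main fibre of bone and skin. Col1a2 was at 8.49, 9.77, 7.99 and 6.97 in DMSO and at 8.70, 8.34, 5.57 and 6.18 in GSI at 10 h. Pair 1 was slightly higher with GSI and the other 3 were lower. The difference was -1.10 ± 0.398 (n = 4 pairs, limma adjusted p = 0.215) at this probe and -0.23 ± 0.255 (adjusted p = 0.733) at the dimmer one. Col1a1 differed by 1.16 in pair 1 and by -1.04, -1.06 and -1.08 in pairs 2 to 4, a mean of -0.50 ± 0.354 (adjusted p = 0.553).

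Type VI collagen, a beaded microfibril that surrounds cells, has chains encoded by Col6a1, Col6a2 and Col6a3. Col6a2 was at 4.89, 5.66, 5.18 and 5.08 in DMSO and at 4.99, 5.18, 4.43 and 4.66 in GSI at 10 h, and its difference was -0.39 ± 0.141 (n = 4 pairs, limma adjusted p = 0.220). Pair 1 was again the exception, higher by 0.10. The brighter Col6a1 probe differed by 0.35, -2.45, -2.30 and 0.02 at 10 h (mean -1.10 ± 0.523, adjusted p = 0.364) and by 3.42 in pair 1 at 4 h. Its other probe differed by -0.47 ± 0.196 at 10 h (adjusted p = 0.293) and by 0.70 in that 4 h pair. Col6a3 differed by -0.25 ± 0.315.

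Of the remaining collagens, Col3a1 and Col5a1 (fibrillar types III and V) were lower in every pair at 10 h, with means of -0.11 and -0.22, and did not pass. The other Col5a1 probe was higher by 0.39 in pair 2 and lower in the other 3 pairs, a mean of -0.07 ± 0.126. Col5a2, the partner chain of Col5a1, differed by -0.31. The basement membrane chains, which endothelium also makes, were at -0.27 (Col4a1) and -0.01 (Col4a2).

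Matrix proteins gave 10 of 13 negative values at 10 h (median -0.22) and 2 of 13 at 4 h (median 0.17), and 0 passed at either time. Ccn2 and Ccn1 are matricellular proteins induced by Yap, Taz and TGF-beta. At its brighter probe Ccn2 was at 7.54, 8.33, 5.87 and 5.16 in DMSO and at 6.96, 7.36, 5.61 and 4.96 in GSI at 10 h. The fall within each pair was small beside the spread between pairs, and the difference was -0.50 ± 0.190 (n = 4 pairs, limma adjusted p = 0.238). The dimmer probe differed by -0.28 ± 0.163 and was higher in pair 1. Ccn1 was at 5.88, 7.64, 5.62 and 4.96 in DMSO and at 6.13, 6.36, 5.87 and 4.89 in GSI, with only pairs 2 and 4 lower (-0.22 ± 0.262).

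Thrombospondin 1 (Thbs1), which activates latent TGF-beta, had among the smallest p at 4 h, with values of opposite sign at both times. At 4 h it ran from 5.85 over a median of 8.43 to 8.95 in DMSO and from 7.09 over 8.46 to 9.14 in GSI, and was higher with GSI in 5 of 7 pairs. The difference was 0.40 ± 0.198 at 4 h (n = 7 pairs, limma adjusted p = 0.999) and -0.70 ± 0.263 at 10 h (n = 4 pairs, adjusted p = 0.239). The change between both, -1.10 ± 0.329, did not pass (adjusted p = 0.403). Within 4 h code set 2 (pairs 2 and 3) Thbs1 and Ccn1 passed, at 0.71 (adjusted p = 0.0224) and 0.58 (adjusted p = 0.0309). Within the larger code set 3 (pairs 4 to 7) neither did, with Thbs1 at 0.03 and Ccn1 at -0.09, 0 members called, 29 of 38 negative and a median of -0.09. Thbs2, its relative, was lower in every pair at 10 h (-0.23 ± 0.125, adjusted p = 0.421).

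Fibronectin (Fn1), the adhesive glycoprotein of early matrix, and Sparc, a collagen-binding glycoprotein, repeated the pattern of type I collagen at 10 h. Fn1 differed by 1.26 in pair 1 and by -0.99, -0.67 and -0.45 in pairs 2 to 4 (mean -0.22 ± 0.254). Sparc was at 8.58, 9.72, 8.35 and 6.72 in DMSO and at 9.28, 8.87, 7.41 and 5.80 in GSI. Pair 1 was higher with GSI and the other 3 were lower, at -0.84, -0.94 and -0.92, a mean of -0.50 ± 0.204 (n = 4 pairs, limma adjusted p = 0.274). Without pair 1, Sparc passed at 10 h (-0.90, adjusted p = 0.00692) and so did its change between both times (-1.08, adjusted p = 0.0411).

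Biglycan (Bgn), a small leucine-rich proteoglycan of bone and cartilage, differed by 1.20 in pair 1 and by -0.96, -2.04 and -1.39 in pairs 2 to 4. The mean was -0.80 ± 0.374 (n = 4 pairs, limma adjusted p = 0.350) and -0.27 ± 0.321 at the other probe. Bgn passed without pair 1 (-1.46, adjusted p = 0.0486) and within code set 2 (-1.72, adjusted p = 0.0144). Its relatives decorin (Dcn) and lumican (Lum), which regulate collagen fibril width, differed by -0.12 and 0.05 at 10 h.

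At 4 h Dcn had the smallest p of the members. Its level ran from 4.11 over a median of 4.40 to 6.20 in DMSO and from 3.82 over 4.64 to 5.60 in GSI. The ranges overlapped widely although 6 of 7 pairs were lower with GSI, and the difference was -0.23 ± 0.103 (n = 7 pairs, limma adjusted p = 0.999).

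Matrix Gla protein (Mgp), an inhibitor of calcification, was at 6.30 to 8.16 (median 6.89) in DMSO and 5.85 to 8.42 (median 8.08) in GSI at 4 h. Higher and lower pairs were mixed, 4 against 3, and the difference was 0.65 ± 0.308 (n = 7 pairs, limma adjusted p = 0.999). At 10 h it was -0.61 ± 0.408 (n = 4 pairs, adjusted p = 0.528). Periostin (Postn), a matricellular protein of periosteum, and nidogen 1 (Nid1), a linker of basement membranes, were positive at 10 h, at 0.37 ± 0.221 and 0.29 ± 0.278. The other Nid1 probe differed by -0.34 ± 0.199, the opposite sign. The secreted glycoprotein Fstl1 differed by -0.18.

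Of the 6 genes of matrix processing, 5 were negative at 10 h (median -0.31), 1 was negative at 4 h (median 0.16), and 0 passed. Lysyl oxidase (Lox), which crosslinks collagen and elastin, was at 6.32, 7.11, 5.45 and 5.89 in DMSO and at 6.42, 6.14, 4.24 and 4.93 in GSI at 10 h. Pairs 2 to 4 were lower, at -0.98, -1.21 and -0.95, and pair 1 was higher by 0.10, for a mean of -0.76 ± 0.272 (n = 4 pairs, limma adjusted p = 0.214). Its relative Loxl1 differed by -0.30 and Serpinh1, the collagen chaperone Hsp47, by -0.32. The metalloproteinase inhibitors were at -0.64 (Timp1), -0.19 (Timp2) and 0.25 (Timp3), the last being the matrix-bound form.

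The 3 contractile genes were negative at 10 h (median -0.43) and none passed. Caldesmon (Cald1), which regulates actomyosin, was at 5.06, 6.27, 4.88 and 4.63 in DMSO and at 5.23, 4.94, 4.36 and 4.01 in GSI. It was lower in pairs 2 to 4 and higher by 0.17 in pair 1. The mean of -0.57 ± 0.194 had the smallest p of the members that did not pass (n = 4 pairs, limma adjusted p = 0.187). Smooth muscle actin (Acta2) differed by 0.13, -1.23, -0.83 and 0.19 in pairs 1 to 4. Transgelin (Tagln), an actin-binding protein of the same cells, differed by -0.11 on average. At 4 h Tagln ran from 6.28 over 6.92 to 7.67 in DMSO and from 5.85 over 6.79 to 6.94 in GSI. The highest arrays were DMSO arrays, and the difference was -0.23 ± 0.131 (n = 7 pairs, limma adjusted p = 0.999).

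The sign was also counted pair by pair, at the brightest probe of a gene. At 10 h lower values in 4 of 4 pairs were found for 8 of 38 members (Col3a1, Col5a1, Thbs2, Ccn2, Cd248, Cxcl12, Emp1 and Fabp4), against 8.2% of all genes, and higher values in 4 of 4 for 0 members, against 8.47%. At 4 h lower values in 7 of 7 pairs were found for 0 members, against 0.807% of all genes, and higher values for 0, against 1.01%.

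The pairs differed in the direction of the whole group. At 4 h the median member differed by 0.85 in pair 1 (34 of 38 positive), 0.03 in pair 2, 0.24 in pair 3, 0.12 in pair 4, -0.24 in pair 5, -0.02 in pair 6 and -0.22 in pair 7 (35 of 38 negative). At 10 h, 13, 35, 34 and 30 of 38 members were negative in pairs 1 to 4. The median of all genes lay between -0.03 and 0.02 in each of the 11 pairs. In pairs 2 to 6 at 4 h, 17, 8, 14, 31 and 20 of 38 members were negative. Pairs 2, 4 and 6 at 4 h thus held members of both signs, whereas in pairs 1 and 7 at 4 h and pairs 2 and 3 at 10 h at least 34 of 38 had 1 sign.

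Markers of other cells differed by pair too. The feeder's ligand gene Dll1 differed by 0.94, -0.50, -0.53 and -0.36 in pairs 1 to 4 at 10 h, with the same sign as the median stromal gene in each. At 4 h it differed by 0.93, -0.30, 0.55, -0.09, -0.55, -0.18 and 0.00 in pairs 1 to 7, against the sign of the median stromal gene in pairs 2, 4 and 7. The other Dll1 probe differed by -0.02 ± 0.082 at 4 h and -0.15 ± 0.108 at 10 h. Whether this probe reads the transgene of the feeder line is not stated. Dll1 did not pass at either time (0.05 ± 0.180 at 4 h and -0.11 ± 0.238 at 10 h).

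The 10 endothelial markers had medians of 0.44, -0.38, -0.18 and -0.04 in pairs 1 to 4 at 10 h. Like Dll1, they had the sign of the median stromal gene in each. Of them, 4 of 10 were negative on average, with a median of 0.03, and none passed (5 at an unadjusted p under 0.05), the sinusoidal gene Lyve1 differing by -0.73 and Eng by 0.48 (limma adjusted p = 0.0559 for both). The 10 macrophage markers had medians of -0.27, -0.31, 0.05 and -0.03 and the 9 hepatocyte markers of -0.49, -0.65, 0.75 and -0.34. At 4 h the macrophage median was 0.71 and the hepatocyte median 0.54 in pair 1. The endothelial median at that time was opposite in sign to the median stromal gene in pairs 3, 4 and 5. None of the macrophage or hepatocyte markers passed (4 and 0 at an unadjusted p under 0.05), nor did any of 8 fetal liver stellate cell markers (6 negative, median -0.08). Mean log2 levels of the lists at 10 h were 6.05 to 7.77 in DMSO and 5.97 to 7.49 in GSI for endothelium, 5.17 to 6.11 and 5.12 to 5.84 for macrophages, and 5.0 to 5.76 and 4.67 to 6.73 for hepatocytes. The part of such cells in the stromal values was not tested. Of 7 measured stem cell genes, Hlf (0.73, limma adjusted p = 0.0236) and Mecom (0.82, adjusted p = 0.0436) rose at 10 h and none fell. Of all genes, 0.555% were called higher and 0.113% lower. The median of the 7 was 0.73, 0.22, 0.30 and 0.32 in pairs 1 to 4, positive also in pair 1, where the median stromal gene was positive.

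**Figure D3:**
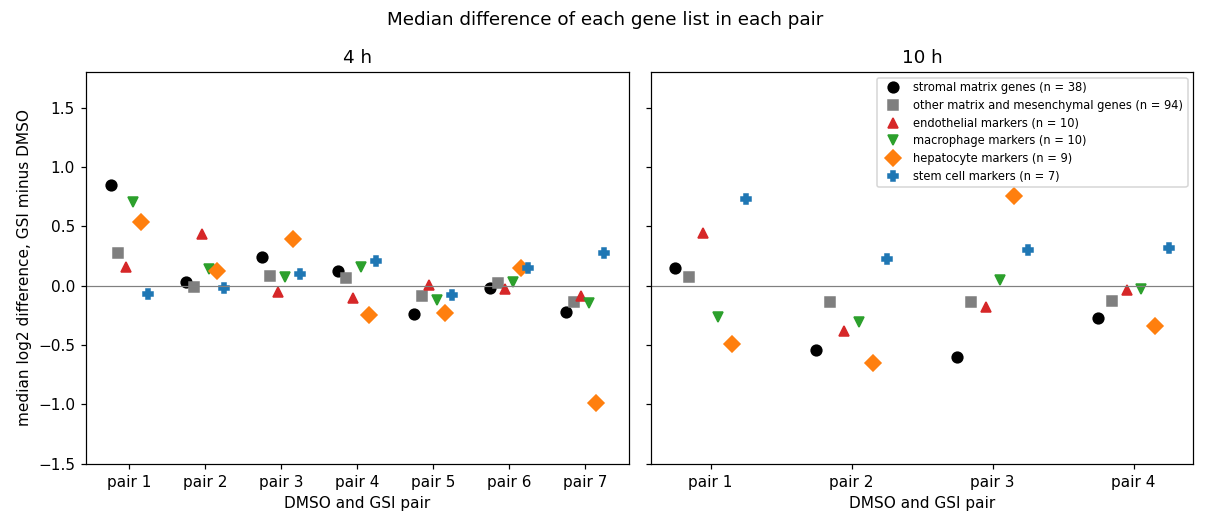
Median difference of GSI minus DMSO (log2, y axis) in each pair (x axis) at 4 h (left) and 10 h (right) for the stromal matrix genes and 5 other gene lists; each point is the median over the genes of a list, whose number is given in the key. The stromal genes (black) reach 0.85 in pair 1 at 4 h and -0.60 in pair 3 at 10 h, and the other matrix and mesenchymal genes (grey) stay between -0.14 and 0.28.

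A further 100 matrix, contractile, mesenchymal and adipocyte genes, of which 94 were measured, had values of both signs. None passed at either time. At 10 h 68 of 94 were negative (median -0.08) and 13 had an unadjusted p under 0.05, against 53.8% and 14.1% of all genes. At 4 h 40 of 94 were negative (median 0.02) and 2 had an unadjusted p under 0.05, against 45.7% and 4.21% of all genes. At 10 h the median was -0.08 for other collagens (9 of 11 negative), -0.10 for other matrix proteins (21 of 27), 0.00 for other matrix processing (7 of 16), -0.07 for other contractile genes (10 of 12) and -0.10 for other mesenchymal surface and regulator genes (14 of 18). The smallest p belonged to Igfbp7, a secreted binding protein of endothelium and fibroblasts, which was lower in 4 of 4 pairs (-0.74 ± 0.181, limma adjusted p = 0.0769). The collagen-modifying gene Crtap (0.43), the smooth muscle actin gene Actg2 (-0.96), the laminin chain gene Lamb1 (-0.49) and the calponin gene Cnn2 (0.39) followed, and each had the same sign in 4 of 4 pairs.

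Levels of the stromal genes varied more between cultures of a group than those of most genes. The median SD of a member was 0.673 in DMSO at 4 h, 0.590 in GSI at 4 h, 0.507 in DMSO at 10 h and 0.528 in GSI at 10 h, against 0.191, 0.193, 0.222 and 0.167 for all genes. In DMSO at 4 h the lowest value was in pair 1 for 15 and in pair 2 for 16 of the 38 members (18.04% and 12.4% of all genes). The highest was in pair 5 for 15, in pair 6 for 9 and in pair 7 for 12 members (8.47%, 26.0% and 8.90% of all genes). In GSI at 4 h, pair 2 held the lowest value of 24 members (13.5% of all genes).

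In DMSO at 10 h, pair 2 held the highest value of 32 of the 38 members and pair 4 the lowest of 21. In GSI at 10 h, pair 1 held the highest of 22. For all genes the share per array at 10 h was 18.3% to 35.6%.

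The 4 h and 10 h arrays shared no sample code and had different medians, so levels across times were described only as percentiles of a gene among all genes of its array, with no test, and culture time and code set cannot be told apart. A percentile here follows a probe across arrays and does not rank one gene against another. In DMSO, 29 of 38 members had a lower median percentile at 10 h than at 4 h (45.6% of all genes), and the median shift was -6.85 percentile points (0.457 for all genes). In GSI, 36 of 38 were lower (45.0% of all genes), with a median shift of -13.8 points (0.469 for all genes).

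In DMSO every 10 h percentile lay below every 4 h percentile for 6 members (Col4a2, Postn, Lum, Dcn, Nid1 and Timp3), against 9.12% of all genes, and above for 0, against 11.9%. Postn went from a median of 65.6 (range 48.8 to 67.4) at 4 h to 31.7 (17.5 to 38.4) at 10 h, and Nid1 from 96.5 (85.8 to 98.6) to 66.7 (33.0 to 83.8). Postn thus lay clear of its 4 h range, while Nid1 ended just under it. Lum went from 34.9 (21.8 to 58.4) to 11.7 (9.04 to 15.5). Mgp moved the other way, from 69.0 to 84.0, with overlapping ranges.

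In GSI the count below was 11 (Col4a1, Col5a2, Fn1, Ccn1, Postn, Lum, Nid1, Timp1, Timp3, Emp1 and Fabp4), against 10.3% of all genes, and above 0, against 13.8%. Fabp4 went from a median of 98.0 (95.04 to 99.4) at 4 h to 66.0 (16.3 to 80.7) at 10 h in GSI, and from 98.4 (88.4 to 99.4) to 85.7 (75.6 to 91.5) in DMSO. Only in GSI did its ranges separate. The mean percentile of the endothelial list was 79.1 to 97.2 over the DMSO arrays at 4 h and 67.0 to 82.9 at 10 h. It was 61.1 to 78.0 and 53.0 to 64.5 for macrophage markers. For hepatocyte markers it was 58.8 to 87.7 and 50.4 to 59.3, and for stem cell genes 72.3 to 84.7 and 79.3 to 81.8. The part of these other cells in the stromal percentiles was not tested.

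**Figure D4:**
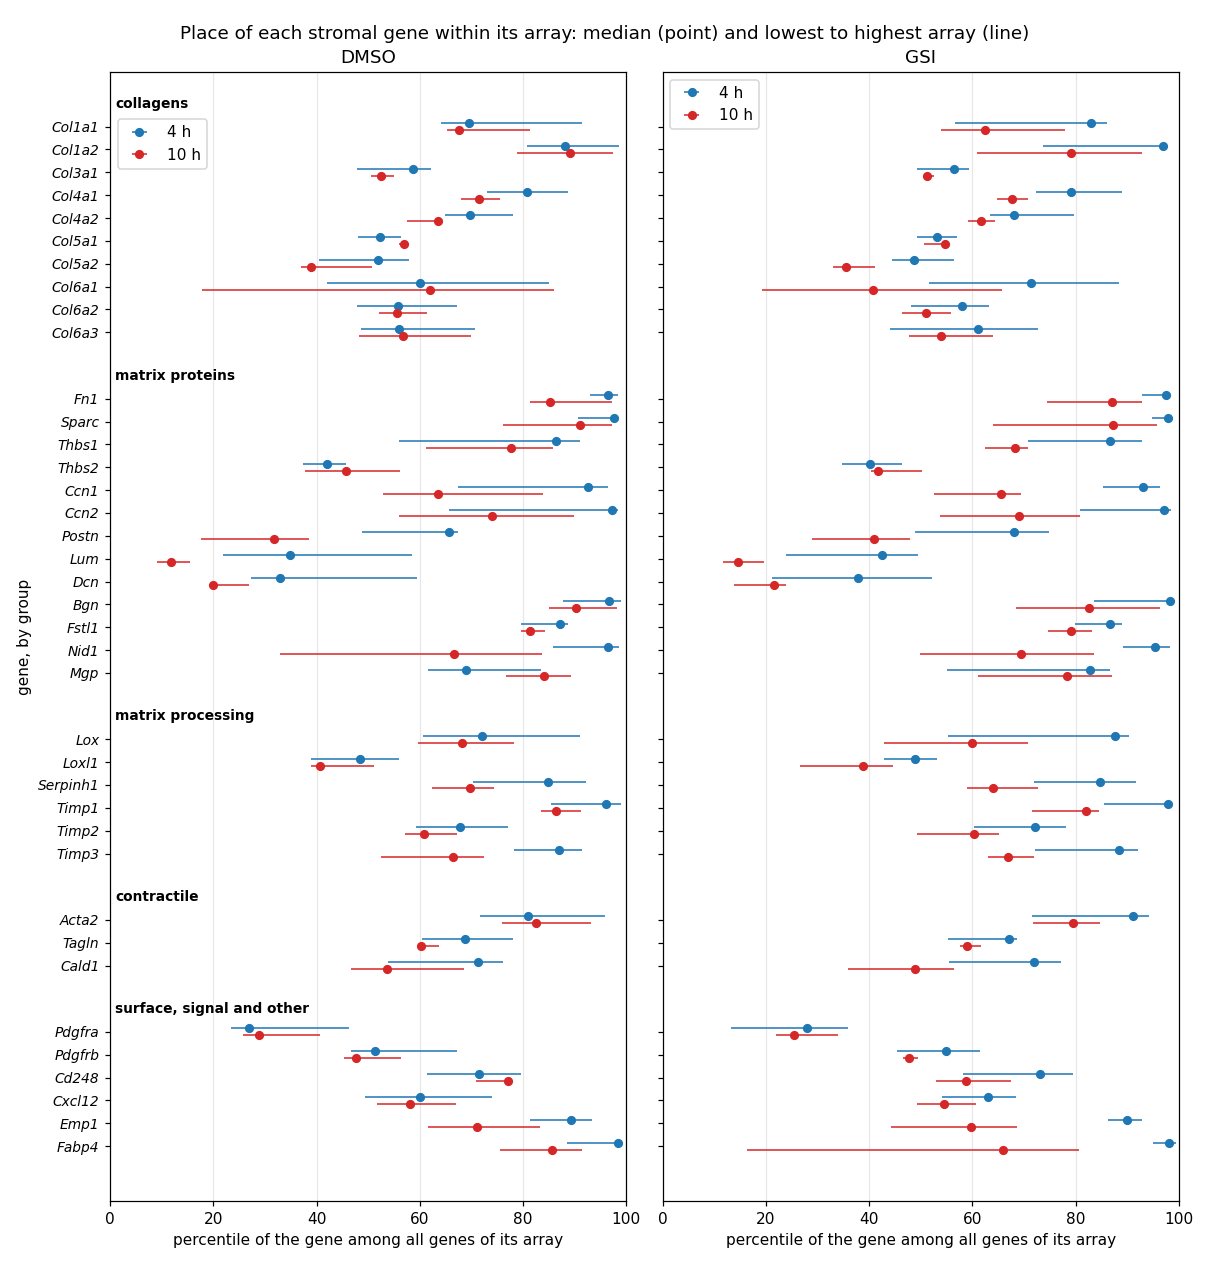
Percentile of each stromal matrix gene among all genes of its array (x axis), by gene (y axis), at 4 h (blue) and 10 h (red), in DMSO (left) and GSI (right); points are medians and lines run from the lowest to the highest array. Red points lie left of blue ones for 29 of 38 genes in DMSO and 36 of 38 in GSI, with the widest red line for Fabp4 in GSI (16.3 to 80.7).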

How the data were processed

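RNA of sorted stem cells was measured on mouse gene arrays, 1 array a sample, 22 in all. The deposited table holds log2 values that the authors made with RMA in Partek 6.6, per the submitters' processing notes. The genome build of the array design is not given in the sources used here. RMA summarises the probes of a set after background correction and quantile normalization, which can compress low signals. Both times had different array medians, so treatments were compared within a time.

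The platform table gave 23521 of 41345 probes 1 symbol, 1814 several and 16010 none. Symbols of 23328 probes were checked by Entrez ID against the RefSeq gene table and 0 changed. Of several probes of a gene, that with the highest mean was used, leaving 22180 genes, 1082 of which had more than 1 probe. No filter was set on low values.

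GSI was compared with DMSO in 1 fit over 22 arrays with limma 3.58.1 (R 4.3.3), with the pair as a fixed block and an intensity trend. Each SE and p thus rests on a residual spread taken over the pairs of both times. P-values were adjusted over all genes (Benjamini-Hochberg) and called under 0.05. The pairing comes from the series' design text, which gives every biological replicate a DMSO and a GSI sample. Deviations within pairs correlated at 0.223 to 0.872 at 4 h and 0.213 to 0.449 at 10 h. The DMSO array correlated best with its own GSI partner in 6 of 7 pairs at 4 h and 4 of 4 at 10 h. No test compared the members as a set. The code was tested on simulated data.

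The members and lists were chosen with earlier results of these data known. Named with all values are members that passed, filled up to 8 by the smallest p at 10 h and to 4 by that at 4 h. Of the other matrix genes, the 5 smallest p at 10 h are named, with Hes1 and Dll1. Other genes named from the marker lists were chosen after their values were seen. Code sets are pairs that share a code in the sample descriptions, whose meaning is not given in the sources used here (at 4 h pair 1, pairs 2 and 3, and pairs 4 to 7, at 10 h pairs 1 and 2, and pairs 3 and 4). Alternatives were the block, each time alone, quantile and cyclic loess normalization, no trend, genes above the median, the mean of probes, all probes, single code sets and leaving out each pair.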

Additional observations from a re-analysis of the deposited data

Results flagged for a closer look

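In 8 of 78 sets of pair differences, the highest pair lay far from the rest by Dixon's test, which chance does in about 1 of 20 independent groups. The 78 sets come from the same pairs and are not independent, so that rate cannot be set against their count. Of these 8, 5 fell on pair 1 at 4 h. There GSI minus DMSO was 3.42 for Col6a1 (next pair 0.635), 1.26 for Ccn2 (next 0.307), 1.12 for Timp2 (next 0.325), 0.887 for Serpinh1 (next 0.171) and 0.530 for Thbs2 (next 0.0779), on the log2 scale. Col4a1 stood out in pair 2 at 4 h, at 0.536 (next 0.0398).

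At 10 h Col1a1 differed by 1.16 in pair 1 (next pair -1.04) and Sparc by 0.709 (next -0.845). Dll1 was also higher with GSI in pair 1 at 4 h, by 0.929, and in the separately numbered pair 1 at 10 h, by 0.940. The part of Dll1 in these values was not tested.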

How the results depend on the processing

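In at least 1 alternative, 32 of 38 members turned sign at 4 h, 13 at 10 h and 5 for the difference between times. The 3 members called at 10 h kept their sign at 10 h in every alternative, but not at 4 h. The calls at 10 h depended on the model. The 3 members called became 1 with all probes, cyclic loess, quantile normalization or the mean of probes, 0 with each time alone, no trend, no replicate block or within code set 1, and 0 to 3 with a pair left out. All genes called at 10 h (148: 123 higher, 25 lower) became 67 with cyclic loess (47 higher, 20 lower), 57 with quantile normalization, 91 without the trend, 285 among genes above the median, 2 with each time alone, 0 without the replicate block, 0 within code set 1, 15 within code set 2 and 27 to 228 with a pair left out. At 4 h the 1 gene called became 2 with each time alone, 0 without the replicate block, 148 within code set 2 and 1 to 3 with a pair left out, and the 0 members called became 2 within code set 2. For the difference between times the 4 genes called became 0 without the replicate block, 0 with quantile normalization and 0 to 7 with a pair left out, and the 0 members became 0 to 1.

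Cd248 kept its call with quantile normalization, cyclic loess, the mean of probes and all probes, and lost it without the trend (adjusted p = 0.0578). Emp1 and Fabp4 lost theirs with quantile normalization (0.0729 and 0.0750), cyclic loess (0.0666 and 0.0687), no trend (0.0703 and 0.0764) and all probes (0.0513 and 0.0515), and Fabp4 with the mean of probes (0.0504). The cause was not tested. With 4 pairs at 10 h and no detection calls used, small differences were not detectable.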
